A study of Homo sapiens with 22 samples.

Results

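LIN28A, LIN28B, MIR17HG and 7 genes that make or load microRNAs (DROSHA, DGCR8, XPO5, DICER1, TARBP2, AGO1 and AGO2) were followed in 16 ChIP-seq peak lists of N-MYC and WDR5. A peak was taken as a gene's own when any of its bases lay within 1 kb of a GENCODE transcription start site (TSS) of that gene. This rule found 88 of the 94408 peaks, in 13 regions of 9 of the 10 genes. In at least 2 of the 3 CHP-134 libraries treated with DMSO, N-MYC was listed near 8 of the 10 genes, where 39.3% of protein-coding genes met the same rule, and WDR5 near 2, LIN28B and DICER1, against 8.71%. With a peak in 1 library counted, these numbers were 9 and 6. The share of all genes was not counted under that rule, so 39.3% and 8.71% do not apply to these numbers. The intron 1 peak of MIR17HG was the strongest N-MYC peak of the whole list in 3 of the 6 CHP-134 lists.

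CHP-134 and IMR-32 are neuroblastoma cell lines in which the N-MYC gene is amplified, and the study asked where N-MYC and its cofactor WDR5 sit together on chromatin. CHP-134 cells received DMSO, the vehicle, or a compound for 4 h, and IMR-32 cells were untreated. The DMSO is given as 0.005% in one label and 0.0005% in another, and the labels name the compound in several ways, so it is called the compound here. There were 3 libraries per antibody for each CHP-134 treatment and 2 per antibody for IMR-32, each made from 3 pooled ChIPs of one sample. The study's methods describe the ChIP-seq as done in independent experiments, but neither they nor the labels say whether the libraries came from separate cultures, so p-values measure the spread between libraries, which may in part be technical. CHP-134 libraries were sequenced as single reads and IMR-32 libraries as paired reads on another instrument, so the line and the sequencing run cannot be told apart.

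MicroRNAs are cut out of long transcripts in the nucleus by DROSHA with its partner DGCR8, carried to the cytoplasm by XPO5 (Exportin-5), cut again by DICER1 with TARBP2, and loaded onto Argonaute proteins such as AGO1 and AGO2. LIN28A and LIN28B are RNA-binding proteins that block the maturation of let-7, a family of microRNAs that represses growth genes including MYC family members, and LIN28B is a known oncogene in neuroblastoma. MIR17HG is the noncoding host gene of the miR-17-92 cluster, a classic target of MYC proteins.

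The lists differed in length, and this bears on each result. N-MYC lists held 9125 to 15286 peaks with DMSO and 5242 to 8286 in IMR-32, and WDR5 lists held 1671 to 4891 and 1258 to 1693. Under the compound, N-MYC replicate 2 had 2964 peaks against 11249 and 12313, and WDR5 had 5973, 15 and 401. Strength is given as the percentile of a peak's fold enrichment over local background within its own list, where 100 is the strongest peak. The lists hold no read counts, so depth is unknown, and a peak that is not listed was only not called at the authors' threshold. As a check of the tissue, N-MYC peaks were listed in at least 2 DMSO libraries near 6 of 11 adrenergic neuroblastoma genes, GATA3 and HAND2 among them, and near neither TH nor DBH. Peaks do not measure expression.

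**Figure D1:**
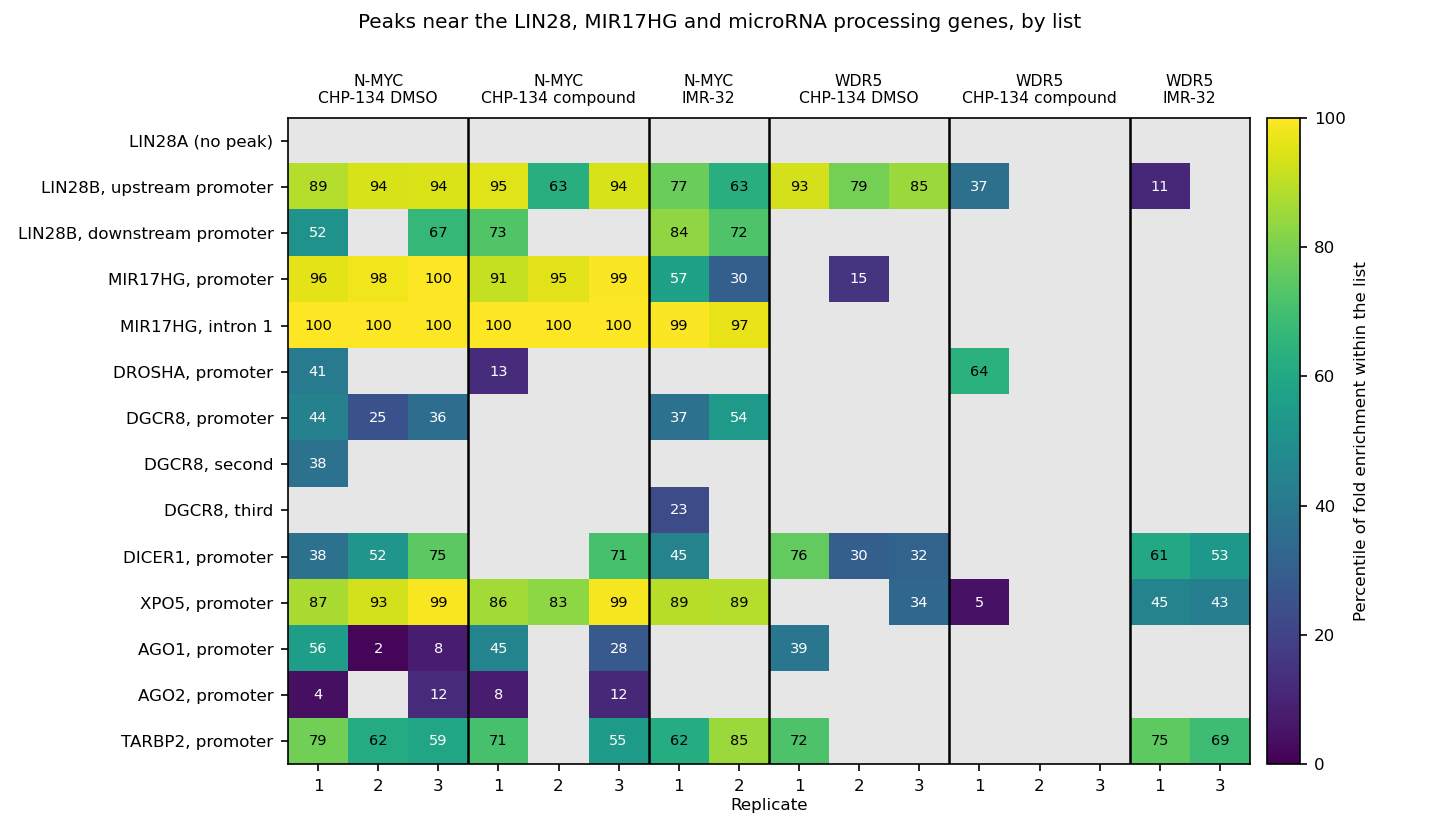
Percentile of fold enrichment (color, 0 to 100, written in each cell) of the peak in each member region (rows) in each of the 16 lists (columns, by group and replicate), with grey where no peak was listed. MIR17HG intron 1 is at 96.6 or higher in all 8 N-MYC lists and has no WDR5 peak, and LIN28B is the one region with a percentile above 79 for both proteins in all 3 DMSO libraries.

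LIN28A had no peak within 1 kb in any of the 16 lists. Its nearest peak lay 20.8 to 21.2 kb away in 13 lists, and at 61.6, 210.4 and 4801 kb in the other 3, of which the last is the WDR5 list of 15 peaks.

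LIN28B had a strong peak of both proteins in CHP-134 cells with DMSO, at chr6:105388034-105389665 (hg19, gene on the + strand). This region lies at a TSS 16241 bp upstream of the canonical one, within 1 kb also of the antisense gene LIN28B-AS1 and of ENSG00000290011, and the lists cannot say which gene a peak belongs to. N-MYC reached percentiles of 89.0, 94.0 and 94.3 in the DMSO libraries (mean 92.4 ± 3.01, SD, n = 3), with folds of 8.74, 10.1 and 10.9. WDR5 reached 93.5, 79.3 and 85.0 in the DMSO libraries, with folds of 8.06, 7.01 and 7.99. The region was thus above percentile 79 in all 6 lists. In IMR-32, WDR5 was weak here, at percentile 11.3 with a fold of 3.84 in replicate 1 and not listed in replicate 3. The N-MYC summits lay 74 to 195 bp downstream of the upstream TSS in all 8 N-MYC lists. Of these summits, 5 were in exon 1 of the upstream transcript and 3 in the intron after it. WDR5 summits lay at 279, 229 and -53 bp in the DMSO libraries, on average 31.7 bp downstream of N-MYC (exact permutation test, two-sided, p = 0.9, n = 3 and 3). That mean rests on replicate 3. Without WDR5 replicate 3, both WDR5 summits lay downstream of the 3 N-MYC summits at 74, 162 and 124 bp (exact permutation p = 0.1, the least that 2 against 3 can give), and without WDR5 replicate 1 the mean difference was -32 bp (exact permutation p = 0.8). The WDR5 summits of compound replicate 1 and IMR-32 replicate 1 lay at 260 and 333 bp, so 4 of the 5 WDR5 summits were farther downstream than every N-MYC summit.

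At the canonical LIN28B TSS, N-MYC had a weaker peak (chr6:105404580-105405817) in 5 lists and WDR5 had none in any list. Its percentiles were 51.6 and 66.8 in DMSO replicates 1 and 3, 73.0 in compound replicate 1, and 83.6 and 72.4 in IMR-32. In both IMR-32 lists this peak ranked above the upstream one, which stood at 77.2 and 62.6, while in the 3 CHP-134 lists that held both peaks it ranked below. This difference in order was not tested.

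Each LIN28B promoter holds 1 E-box, CACGTG, the motif that N-MYC binds with its partner MAX. They are shown in capitals, on the + strand of hg19, because each lies within 100 bp of at least 1 N-MYC summit of this gene. The first stretch, chr6:105388888-105389000, runs from the end of exon 1 of the upstream transcript, and the second, chr6:105404915-105404960, ends before the canonical TSS.

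LIN28B upstream: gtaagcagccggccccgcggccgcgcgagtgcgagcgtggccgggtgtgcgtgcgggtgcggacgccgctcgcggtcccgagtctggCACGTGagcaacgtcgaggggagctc

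LIN28B canonical: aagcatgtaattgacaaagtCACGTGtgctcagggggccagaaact

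The upstream E-box lay 41.5 to 162.5 bp from the 8 N-MYC summits, within 100 bp in 4 of them, and within 100 bp of 4 of the 5 WDR5 summits, the nearest at 7.5 bp. The canonical one lay 6.5 bp from the summit of IMR-32 replicate 2 but was over 100 bp from the other 4 N-MYC summits, at up to 552.5 bp.

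The microRNAs that LIN28 proteins restrain share 1 seed, bases 2 to 8 of the mature strand, through which a microRNA pairs with its targets. All 8 let-7 names found carry GAGGUAG. The mature sequence of the best known one, from RefSeq (GRCh38.p14), has its seed in capitals.

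let-7a-5p: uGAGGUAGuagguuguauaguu

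MIR17HG carried the strongest N-MYC binding of the 10 genes. The peak at chr13:92000421-92001838 (hg19, gene on the + strand), in intron 1 of the canonical transcript and 106 bp from the start of a shorter annotated MIR17HG transcript (DMSO summit), ranked 1 of 15286, 11 of 9125 and 7 of 12283 peaks in the DMSO libraries, with folds of 38.3, 25.1 and 31.6. Under the compound it ranked 1 of 11249, 3 of 2964 and 1 of 12313, with folds of 30.8, 21.7 and 39.5. In IMR-32 it ranked 60 of 8286 and 174 of 5242. The 8 summits fell within 96 bp of each other, 1485 to 1581 bp downstream of the TSS. WDR5 had no peak there in any of its 8 lists.

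**Figure D2:**
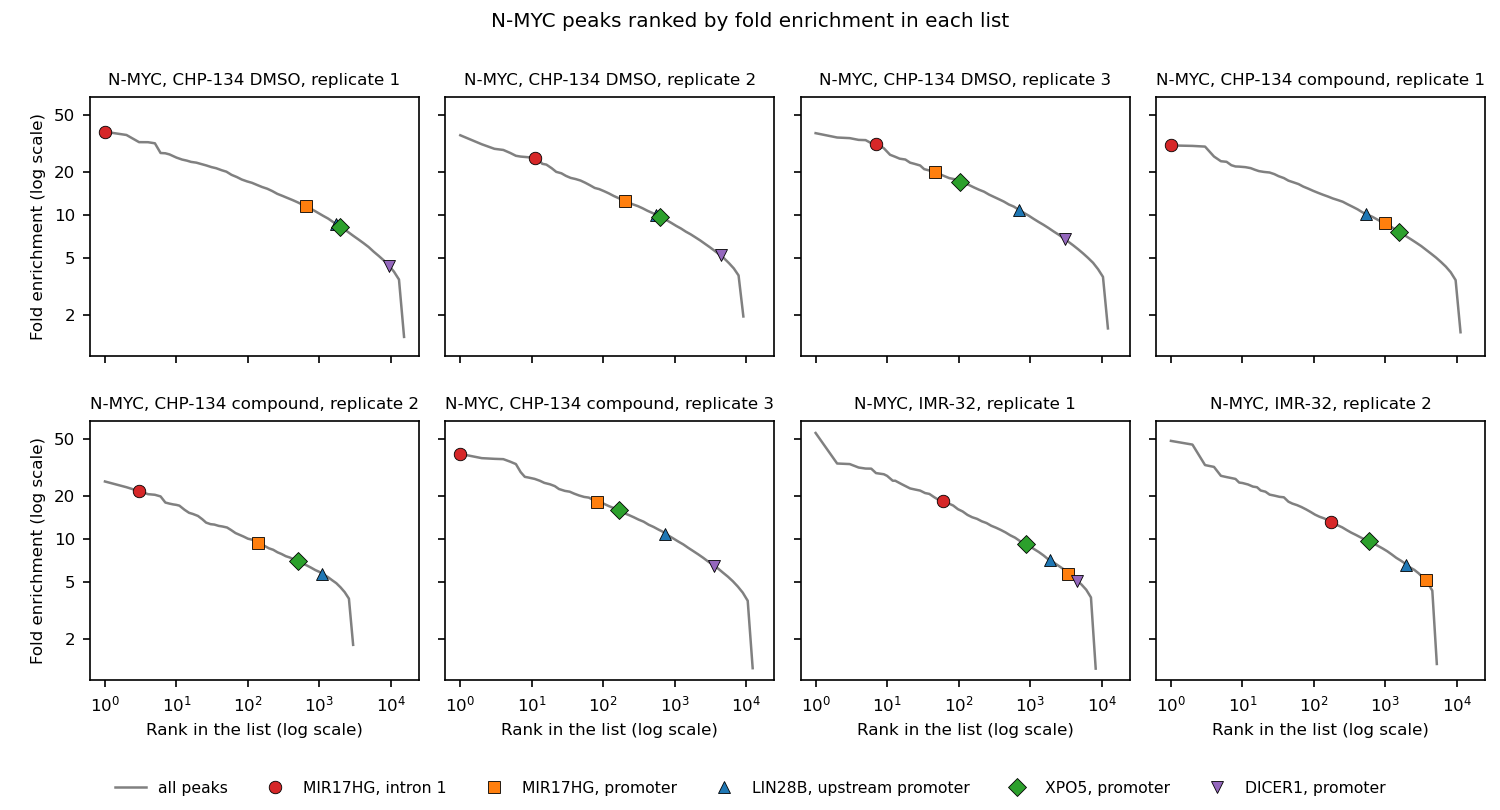
Fold enrichment (log scale) against rank (log scale) for all peaks of each N-MYC list (grey line), with 5 member regions marked. The red point, MIR17HG intron 1, is at rank 1 in DMSO replicate 1 and compound replicates 1 and 3 and at rank 60 and 174 in IMR-32, and the MIR17HG promoter (orange) moves from rank 47 to 645 with DMSO to 3437 and 3649 in IMR-32.

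A separate N-MYC peak covered the MIR17HG promoter (chr13:91999089-92000268), with summits at -371 to -233 bp from the TSS. It reached percentiles of 95.8, 97.8 and 99.6 with DMSO. WDR5 was listed there in DMSO replicate 2 alone, at percentile 15.4. The promoter region has peaks in 9 lists and the intron 1 region in 8, so the promoter stands for the gene where 1 region per gene is counted.

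The hairpin of miR-17 begins 1381 bp downstream of the intron 1 summit (median of the DMSO libraries), and that of miR-92a-1, the last of the cluster, 2090 bp downstream, all 6 within intron 3. Hairpins were placed by an exact match of the RefSeq hairpins to the GRCh37 sequence. The 6 main mature microRNAs of the cluster carry 4 seeds. They are given below with the seed in capitals, because the seed groups them, miR-17 with miR-20a and miR-19a with miR-19b.

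miR-17-5p: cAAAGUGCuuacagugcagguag

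miR-20a-5p: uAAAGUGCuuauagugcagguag

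miR-18a-5p: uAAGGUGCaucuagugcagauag

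miR-19a-3p: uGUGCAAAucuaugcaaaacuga

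miR-19b-3p: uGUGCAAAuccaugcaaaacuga

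miR-92a-3p: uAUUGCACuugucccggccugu

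Neither MIR17HG region holds a CACGTG in its 1180 and 1418 bp. The 300 bp around the intron 1 summits, chr13:92001336-92001635, are shown on the + strand of hg19. Capitals mark CATGTG and CACGAG, the 2 nearest to the summits among the variant E-boxes searched for. Besides these, the search for variants covered CACGCG alone. A motif of the looser form CANNTG, left in lower case, lies nearer to the summits than CACGAG.

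MIR17HG intron 1: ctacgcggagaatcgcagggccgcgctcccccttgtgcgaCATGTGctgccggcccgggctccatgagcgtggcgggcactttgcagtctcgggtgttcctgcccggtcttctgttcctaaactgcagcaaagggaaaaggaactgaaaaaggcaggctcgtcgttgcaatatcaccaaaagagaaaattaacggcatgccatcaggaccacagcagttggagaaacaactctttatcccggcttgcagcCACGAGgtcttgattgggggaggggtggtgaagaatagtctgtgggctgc

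CATGTG lay 57.5 to 153.5 bp from the 8 summits and CACGAG 56.5 to 152.5 bp, so the summits fell between them. At the MIR17HG promoter, CACGCG lay 6.5 to 76.5 bp from the 8 summits. These variants are common under N-MYC peaks. Counting both strands, 18.4 to 22.0% of the 201 bp windows around the summits of the 8 N-MYC lists held CATGTG, 19.6 to 26.0% held CACGCG and 12.2 to 15.5% held CACGAG. They were searched for after CACGTG was found missing.

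DROSHA and DGCR8, the 2 partners of the nuclear cut, had weak or scattered peaks. DROSHA was listed for N-MYC in DMSO replicate 1 (percentile 41.5) and compound replicate 1 (12.6) and for WDR5 in compound replicate 1 (63.8), each time next to C5orf22, whose TSS also lies within 1 kb. DGCR8 had an N-MYC peak just upstream of its TSS (chr22:20067161-20067820) at percentiles of 44.1, 25.2 and 36.3 with DMSO and 37.1 and 54.2 in IMR-32. It was in none of the 3 compound lists, and no WDR5 list held a peak near DGCR8. Another 2 DGCR8 regions had a peak in 1 N-MYC list each.

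XPO5, the export receptor for precursor microRNAs, had N-MYC about as strong as LIN28B, with a mean percentile of 93.1 ± 5.98 (SD, n = 3) with DMSO. Its region (chr6:43542887-43544338, gene on the - strand) is shared with POLH, a DNA polymerase gene that starts on the other strand. N-MYC was listed there in all 8 lists, at percentiles of 87.2, 93.1 and 99.2 with DMSO and 89.4 and 88.9 in IMR-32. The N-MYC summits fell within 70 bp, 87 to 157 bp downstream of the canonical XPO5 TSS, in its exon 1 UTR. WDR5 was weaker and stood elsewhere. It was listed in DMSO replicate 3 (33.6), in compound replicate 1 (4.75) and in both IMR-32 libraries (44.5 and 42.8), with summits at -340, 387, -305 and -253 bp from the TSS in that order. The summits of DMSO replicate 3 and of IMR-32 thus lay upstream of XPO5 and that of compound replicate 1 in its intron 1. Measured from the mean N-MYC summit, the offset was -466 bp with DMSO and -385.5 bp in IMR-32.

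DICER1, the cytoplasmic nuclease, had both proteins in all 3 DMSO libraries, at chr14:95622719-95624278 (gene on the - strand, with DICER1-AS1 within 1 kb). N-MYC reached percentiles of 37.7, 52.0 and 74.9, and WDR5 75.9, 30.1 and 31.7. The peaks overlapped, but their summits did not coincide. N-MYC summits stood at -126, -101 and -119 bp from the TSS, and WDR5 summits at 500, 939 and 923 bp, in intron 1. The difference was 902.7 bp and the positions did not overlap (p = 0.1 in an exact two-sided permutation, the least 3 against 3 libraries can give). With same-numbered libraries paired, the exact sign-flip permutation gave p = 0.25, the smallest that 3 pairs allow. With the middle of each peak in place of its summit the difference was 612.7 bp. In IMR-32, which these tests did not use, the 2 WDR5 summits stood at 976 and 838 bp. The N-MYC summit of replicate 1 stood at -88 bp there.

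**Figure D3:**
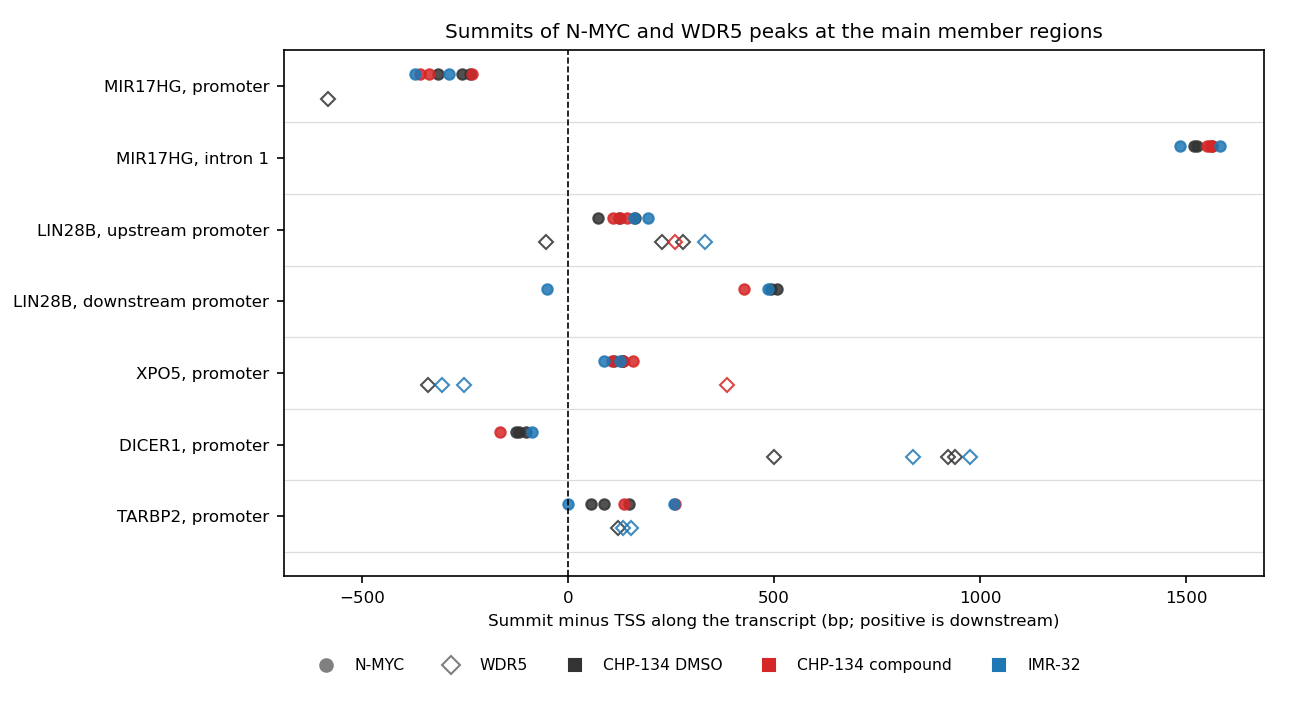
Position of N-MYC (filled circles) and WDR5 (open diamonds) summits relative to the TSS, in bp along the transcript, for 7 member regions, with 1 point per list that held a peak and color for the group. At DICER1 every WDR5 summit lies 500 bp or more downstream of the TSS and every N-MYC summit upstream of it, while at TARBP2 the summits of both proteins mix.

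TARBP2, which helps DICER1 cut, had N-MYC at percentiles of 78.7, 61.7 and 58.9 with DMSO and 61.9 and 85.0 in IMR-32 (chr12:53894585-53895550, gene on the + strand, with MAP3K12 and ENSG00000270175 within 1 kb). WDR5 was listed in DMSO replicate 1 at 72.2 and in both IMR-32 libraries at 75.1 and 69.0. The mean summits of the 2 proteins were 24.0 bp apart in CHP-134 and 13.5 bp apart in IMR-32.

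The Argonaute genes, whose proteins carry the finished microRNA, had peaks that varied between libraries at AGO1 and were weak at AGO2. AGO1 was listed for N-MYC at percentiles of 55.5, 1.72 and 7.69 with DMSO, 45.1 and 27.8 in compound replicates 1 and 3, and not in IMR-32, and for WDR5 in DMSO replicate 1 alone, at 39.4. AGO2 was listed for N-MYC in DMSO replicates 1 and 3 (3.96 and 12.05) and compound replicates 1 and 3 (8.19 and 11.7), with no peak in the IMR-32 or WDR5 lists. The AGO2 summits lay 1058 to 1231 bp downstream of the canonical TSS. With the summit itself required within 1 kb of a TSS, N-MYC was near 7 of the 10 members with DMSO instead of 8.

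Counted over groups, N-MYC was listed in at least 2 libraries near 8 of the 10 members with DMSO, where 39.3% of 20176 protein-coding genes met the same rule. The counts were 6 of 10 under the compound, against 31.2% of protein-coding genes, and 5 of 10 in IMR-32, against 16.1%. WDR5 was listed in at least 2 libraries near 2 of 10 members with DMSO (LIN28B and DICER1) against 8.71% of protein-coding genes, near 0 of 10 under the compound against 1.36%, and near 3 of 10 in IMR-32 (DICER1, XPO5 and TARBP2) against 4.98%. Overlapping peaks of both proteins stood near LIN28B and DICER1 with DMSO, against 7.59% of protein-coding genes, and near XPO5 and TARBP2 in IMR-32, against 2.43%. In IMR-32, DICER1 lacked N-MYC in 1 of the 2 libraries and LIN28B lacked WDR5 in 1, and whether the lines differ in overlap was not tested. XPO5 no longer counted where at least 50% of the shorter peak had to be covered. With only the 2964 strongest N-MYC peaks of each list, the length of the shortest, N-MYC was listed in at least 2 libraries near LIN28B, MIR17HG and XPO5 in each of the 3 groups, and near no other member. With the 401 strongest WDR5 peaks, LIN28B was the single member with WDR5 in at least 2 libraries, and in the DMSO group alone. Shares of all genes were not counted with these shortened lists, so the shares above do not apply to them.

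The compound was compared with DMSO to ask whether N-MYC and WDR5 peaks at these genes changed rank. For N-MYC, LIN28B, MIR17HG and XPO5 had a peak in all 6 libraries. LIN28B stood at 95.2, 62.7 and 94.0 under the compound, where the low value came from the short list of replicate 2 (difference -8.46 percentile points, exact permutation test, two-sided, p = 0.9). Without that library the difference was 2.19 points in the other direction (exact permutation p = 0.5). The MIR17HG promoter stood at 91.1, 95.4 and 99.3 (difference -2.44, exact permutation p = 0.4) and XPO5 at 86.1, 83.0 and 98.7 (difference -3.88, exact permutation p = 0.5). MIR17HG intron 1 was at 99.89 or higher in all 6 libraries (difference 0.03, exact permutation p = 0.7). None of the 3 members compared had percentiles under the compound that were all below, or all above, those with DMSO. Of the 2196 protein-coding genes compared, 6.88% were all below and 0.0911% all above, and 3 members are too few to differ visibly from these shares. Same-numbered libraries deviated together, and within these pairs the MIR17HG promoter and XPO5 were lower under the compound in 3 of 3 pairs (exact sign-flip permutation p = 0.25 for each, the smallest that 3 pairs allow), as were 35.9% of the protein-coding genes. For XPO5 the direction turned with list length, to 5.20 points among equal numbers of the strongest peaks and 3.38 among regions shared by every library (exact permutation p = 0.8 each), and for LIN28B to 6.17 and 2.51 (exact permutation p = 0.8 and 0.7).

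For WDR5, no member had a peak in all 3 compound libraries, so none could be compared by the rule used for N-MYC. LIN28B, at percentiles of 79.3 to 93.5 with DMSO, was listed in compound replicate 1 at 36.9 with a fold of 3.78 and was missing from the lists of 15 and 401 peaks. DICER1 was listed with WDR5 in all 3 DMSO libraries and in none of the compound libraries, the list of 5973 peaks included. With an unlisted peak counted as percentile 0, the mean under the compound was lower at 6 of 7 members, with differences of -73.6 points at LIN28B and -45.9 at DICER1, and higher at 1, DROSHA, by 21.3. The lists of 15 and 401 peaks hold 0 for each of these members, so a lower mean under the compound was largely set in advance. The share of all genes with a lower mean was not counted. Near protein-coding genes in general, WDR5 in at least 2 libraries went from 8.71% with DMSO to 1.36% under the compound. Whether the differences follow the compound or the length of the lists was not tested.

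In IMR-32 against CHP-134 with DMSO, 5 members had N-MYC in every library. LIN28B (77.2 and 62.6 in IMR-32) was lower by 22.6 percentile points and the MIR17HG promoter (57.4 and 30.2) by 54.0, and neither overlapped the CHP-134 libraries (exact permutation p = 0.1 each, the smallest that 3 against 2 allows). MIR17HG intron 1, at 99.3 and 96.6 in IMR-32, was also below all 3 CHP-134 libraries, with a difference of -1.995 points (exact permutation p = 0.1), which was -0.665 without IMR-32 replicate 2 and -3.32 without IMR-32 replicate 1. XPO5, DGCR8 and TARBP2 overlapped between the lines (exact permutation p = 0.6, 0.4 and 0.5). All percentiles were lower in IMR-32 at 2 of 5 member genes against 24.8% of the 2741 protein-coding genes compared, and higher at 0 of 5 against 6.93%. Among equal numbers of the strongest peaks, the LIN28B difference was -18.1 points (exact permutation p = 0.2), while TARBP2 was higher in IMR-32 by 37.4 points (exact permutation p = 0.1). The XPO5 difference was -7.33 points when ranked by -log10 q (exact permutation p = 0.1) and 0.0434 among regions shared by every library. For DGCR8 these values were -2.57 and 14.3 points (exact permutation p = 0.8 and 0.1). With the strongest peak of each gene in place of its leading region, the MIR17HG difference was that of intron 1 and the LIN28B difference was -14.5 points (exact permutation p = 0.1). For WDR5, DICER1 alone was listed in every library of both lines, at 60.5 and 53.5 in IMR-32 (difference 11.1, exact permutation p = 0.6). This difference was 26.1 without DMSO replicate 1, 3.19 without DMSO replicate 2 and 3.96 without DMSO replicate 3.

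The E-box CACGTG was looked for under the N-MYC summits. It stood within 100 bp of the N-MYC summit (DMSO, the peak with the highest -log10 q) at 1 of the 8 members with N-MYC in at least 2 DMSO libraries, against 27.5% of 7913 protein-coding genes. That member was AGO2, where it lay 6.5 bp from the summit of DMSO replicate 3 although the peak was among the weakest of its list. That summit was more than 1 kb from the canonical AGO2 TSS. With the summits of all DMSO libraries LIN28B joined it, making 2 of 8. The share over all genes was not counted with all summits, so the 27.5% does not apply to this count. In the strong XPO5 region the single CACGTG was 481.5 to 551.5 bp from the 8 summits, while CACGAG lay 1.5 to 37.5 bp and CACGCG 4.5 to 74.5 bp from them. No CACGTG was found in the MIR17HG, DICER1, AGO1 or TARBP2 regions or in the leading DGCR8 region, which are 660 to 1560 bp long. Of 201 bp windows at canonical TSSs of protein-coding genes, 5.68% held one, which is no baseline for regions of that length.

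Among 24 other genes of microRNA biogenesis and function, N-MYC was listed in at least 2 DMSO libraries near 19 and WDR5 near 7, beside 39.3% and 8.71% of all protein-coding genes. N-MYC was strong at RAN, the GTPase that XPO5 needs for export (mean percentile 94.8 ± 1.79, SD, n = 3), and at DDX5, a helicase of the DROSHA complex (94.2 ± 4.09, n = 3). DDX5, its relative DDX17, HNRNPA1, KHSRP, NCBP1 and TNRC6A were among the genes with WDR5 in at least 2 DMSO libraries. HNRNPA1, an RNA-binding protein, had WDR5 at a mean percentile of 83.4 ± 14.8 and N-MYC at 90.7 ± 7.85 (SD, n = 3 each). TNRC6A, the Argonaute partner GW182, had WDR5 in 3 of 3 DMSO libraries (74.5 ± 12.1) and N-MYC in no list. AGO4 and TNRC6B had no N-MYC peak in any list either.

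Of 17 other microRNA host genes, 10 had N-MYC and 5 had WDR5 in at least 2 DMSO libraries. Of the 12 hosts that are lncRNA genes, 8 had N-MYC and 3 had WDR5, where 12.9% and 2.92% of 18702 lncRNA genes did. Of the 5 protein-coding hosts, 2 had N-MYC and 2 had WDR5, where 39.3% and 8.71% of 20176 protein-coding genes did. MIRLET7A1HG, which hosts let-7 microRNAs, had N-MYC at a mean percentile of 93.9 ± 5.03 (SD, n = 3) and WDR5 in 2 libraries at 67.8 ± 2.27. MCM7, whose introns hold the miR-106b-25 relatives of miR-17-92, had N-MYC at 88.3 ± 4.08 and WDR5 at 38.1 ± 40.3 (n = 3 each). MIR9-1HG had N-MYC at a mean percentile of 81.2 ± 12.3 of the N-MYC lists and WDR5 at 81.7 ± 17.3 of the WDR5 lists (SD, n = 3 each), and DLEU2 and SMC4 were the other hosts with WDR5 in at least 2 libraries. MIR34AHG, MIR100HG, MIR124-2HG, MIR155HG, CTDSPL and PTK2 had no N-MYC peak in any list.

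**Figure D4:**
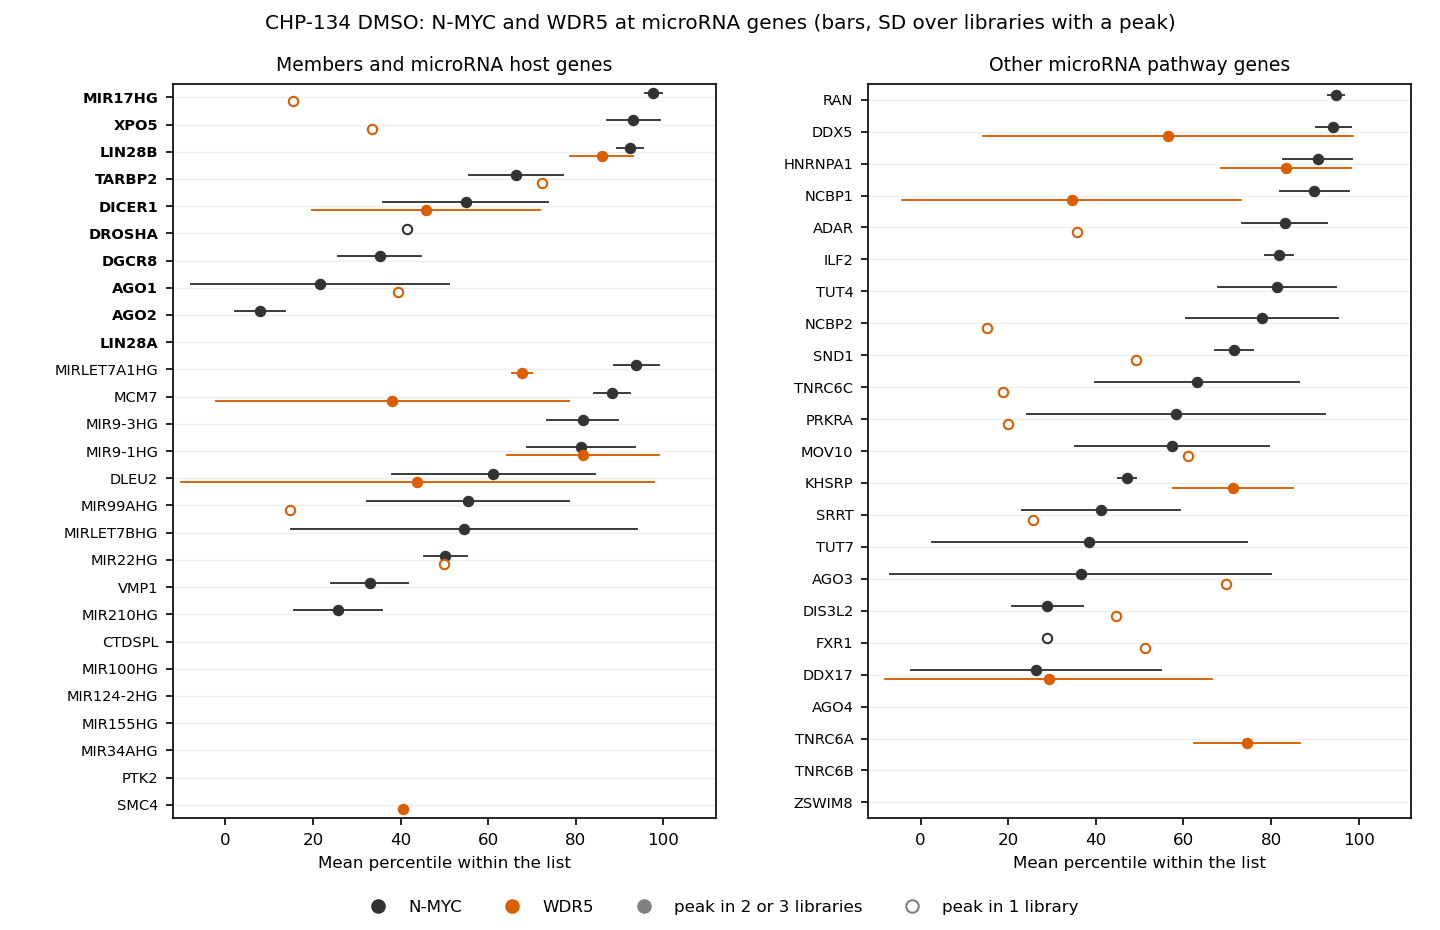
Mean percentile within the list (horizontal axis) of N-MYC (black) and WDR5 (orange) in the CHP-134 DMSO libraries, for the members (bold) and microRNA host genes (left) and 23 of the other microRNA pathway genes (right), with bars for the SD over the libraries with a peak and open circles for a peak in 1 library. MIR17HG, XPO5 and LIN28B lead the members for N-MYC, and LIN28B and DICER1 are the members with a filled orange circle.

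The genes whose N-MYC percentiles over the 8 lists were nearest to those of LIN28B were MEF2D, PYCR3 and CRELD1, with mean absolute differences of 2.58, 3.09 and 4.22 percentile points, out of 1402 regions with a peak in all 8 lists. For the MIR17HG promoter they were LINC00921 with ENSG00000290183, ENSG00000286171 with ENSG00000286180, and MPHOSPH6 with MPHOSPH6-DT (3.06, 4.18 and 4.65 points), and for intron 1 ENSG00000286874, NCL and DNAAF5 (0.51, 0.517 and 0.544 points). The lists share antibody and depth within a library, so this likeness is a description.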

How the data were processed

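N-MYC and WDR5 ChIP-seq peaks of CHP-134 (DMSO or compound) and IMR-32 cells were analysed, and the IgG samples were not analysed here. The authors trimmed reads (Cutadapt), aligned them to hg19 (Bowtie2) and called peaks per library (MACS2, q-value 0.05), and versions are not given in the sources used here. The deposited lists give the summit offset, a fold (ratio over local background), −log10 p-value, −log10 q-value and a score, of which the score and −log10 p were not used. Libraries have no counts, so folds were ranked within a list only, as percentiles, since they depend on depth and background.

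TSSs came from all transcripts of protein-coding and lncRNA genes of GENCODE 44 mapped to GRCh37. Peaks of one gene that shared a base were merged into regions, and the region with peaks in most lists stood for the gene. Summit positions were measured from the canonical TSS, or from the upstream TSS at the upstream LIN28B promoter. Groups were compared per region with exact permutation tests (two-sided) where every library held a peak. Same-numbered libraries paired: their deviations from the group means correlated at 0.623 to 0.661 for N-MYC compound and DMSO, and at 0.382 to 0.437 for WDR5 and N-MYC. Pathway and host genes were named if they had WDR5 in at least 2 DMSO libraries, the 3 highest mean N-MYC percentiles, or no N-MYC peak in any list, of which 1, kept in the totals, is not reported here by name. The members and gene lists were chosen with earlier results of these data known. Joins, ranks and tests were tested on simulated data. Python 3.11.15, numpy 2.4.6, pysam 0.24.0 and samtools 1.23.1 were used. Alternatives were the TSS distance, summits, basic TSSs, stricter q-values, equal lists, ranking by −log10 q, the E-box window and motif, the overlap required, the replicate block and leaving out each library. Variant E-boxes, the summits of every library and the comparison without compound replicate 2 were added after seeing the data.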

Additional observations from a re-analysis of the deposited data

How the results depend on the processing

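Of 130 alternative values of the main counts and medians, 18 moved beyond 1.5 times the count or the spread between libraries. With equal lists, members with N-MYC in at least 2 libraries were 3 with DMSO, 3 under the compound and 3 in IMR-32, and those with WDR5 were 1 with DMSO and 0 in IMR-32. With a peak in 1 library counted, WDR5 was at 6 members with DMSO and 3 under the compound, and with every library required N-MYC under the compound was at 3. Shares over all genes were not counted for these alternatives. Leaving out each library, N-MYC members ranged from 7 to 8 with DMSO, from 3 to 6 under the compound (3 without replicate 1 or 3) and from 5 to 6 in IMR-32. Among equal numbers of strongest peaks, the median N-MYC difference between compound and DMSO turned from -3.88 to 5.20 points (2.51 among regions shared by every library), and the WDR5 difference at DICER1 between the lines from 11.1 to 44.2. Leaving out a library gave -8.58 to -0.758 points for the first of these. With missing peaks counted as 0, WDR5 could be set against DMSO at 7 members. CACGTG was at 2 members within 250 bp or with the summits of every DMSO library, and CANNTG and the variant E-boxes were at 5 each. Overlapping peaks covering at least 50% of the shorter one were at 1 member in IMR-32. The cause was not tested in any of these. With the replicate block, the median N-MYC difference over 3 members was -3.88 points. The median summit difference of 467.2 bp is over 2 members, LIN28B at 31.7 bp and DICER1 at 902.7 bp, and describes neither. The block could change no call. It leaves a difference of means as it is, and a sign-flip permutation of 3 pairs cannot give a p below 0.25. The WDR5 comparison under the compound stayed at 0 members with the block, which cannot add a listed peak. These block values are among the alternatives counted above as not moved.

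The lists carry no depth, and 2 or 3 libraries a group cannot give a p below 0.1. Short lists miss weak peaks, so an unlisted peak is not an absent protein. At 5 of the 9 members with a region another gene starts within 1 kb.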
